A study of Mus musculus with 2 samples.

Results

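Forkhead (Fox) transcription factors bind DNA through a shared winged-helix domain and are grouped into lettered subfamilies. In the embryonic urinary tract they act in the mesenchyme and stroma of kidney and ureter, among them Foxc1, Foxc2, Foxd1, Foxd2 and Foxf1, as well as in epithelia and in cycling cells. Several are tied to signalling: Foxf1 and Foxl1 respond to hedgehog ligands, FOXO proteins are kept out of the nucleus by AKT kinase, and FOXM1 drives genes of mitosis. The genes described here are the 43 whose name in the array design begins with Fox, a subfamily letter and a number, out of 31791 gene names on the array. Other forkhead genes were not analysed here. One of the 43, Foxl2os, is a noncoding transcript named after its neighbour Foxl2. Each gene was represented by its brightest probe.

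Total RNA of dissected ureters of NMRI mouse embryos at stage E18.5 was hybridised to 2 Agilent arrays of 2 colours. The tested embryos were Tbx18 cre/+ and homozygous for floxed alleles of both Tbx2 (fl/fl) and Tbx3 (fl/fl), called cDKO in the labels. The controls were Tbx18 +/+ with Tbx2 fl/? and Tbx3 fl/?, in which the second allele of each floxed gene is not given. The array of replicate 1 compared males and carried cDKO RNA in red, and that of replicate 2 compared females and carried it in green, so sex, dye and replicate cannot be told apart. Cre comes from the Tbx18 locus, which is active in the mesenchyme around the ureter, and controls lack this allele, so effects of the Cre allele and of the floxed alleles cannot be told apart either. How many embryos gave each RNA is not stated in the labels, and the number of arrays limits the precision. Since RNA came from whole ureters, fewer cells of a type and less RNA per cell cannot be told apart.

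Per channel, 72.1% to 81.6% of 43020 gene spots exceeded background clearly, and the median spot was 12.1 to 17.0 times its local background. Transcripts of Tbx2, Tbx3 and Tbx18 were higher, not lower, in RNA labelled cDKO, with log2 ratios of 0.74, 0.66 and 0.81 (limma, adjusted p of 0.0273, 0.0305 and 0.00778). Which exons the floxed alleles lose is not given, so these probes do not check the genotype. All 14 urothelial markers examined and all 12 smooth muscle markers were well above background in every RNA. Smooth muscle markers fell, 11 of 12 (limma, adjusted p under 0.05), with summed signals of 138498 and 85444 in the cDKO RNAs against 707661 and 439334 in the control RNAs. Other marker lists rose in part, namely 8 of 12 genes of fibroblasts and adventitia, 8 of 11 tested genes of nephron and tubule, and 3 of 12 of endothelium. Over all tested genes 2.19% were called higher and 2.26% lower. The part of these marker lists in the forkhead results below was not tested.

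Most forkhead genes tested did not pass, and the 5 that did were higher in the RNA labelled cDKO. Of the 43 genes, 28 could be tested, meaning that their probe was well above background in the cDKO RNA of both arrays or in the control RNA of both arrays. Foxl1, Foxd2, Foxc2, Foxo1 and Foxq1 were higher in the RNA labelled cDKO and 0 were lower, while 23 did not pass (limma, Benjamini-Hochberg adjusted p under 0.05 over 29274 probes). These 5 are 17.9% of the 28 tested, where 2.19% of 23419 tested genes were called higher and 2.26% lower. The 28 spread more between the arrays, with a median SD of 0.24 against 0.16 for all tested genes. The test leans mainly on the variance pooled over all probes, so it can understate the spread of such genes. At an unadjusted p under 0.05, 8 of the 28 were higher and 0 lower, where 9.62% and 6.4% of all tested genes were. The 5 genes are shown by the first 30 bases of their 60-base probes as the array design writes them, because each probe defines which stretch of which transcript was read.
Foxl1: ggtccacagtgatgtctcacaacaactaag
Foxd2: gacttctccacttagcggagactctgtgaa
Foxc2: cacaccaaaagactttaaaatttcaatctc
Foxo1: ttcggaatgacctcatggatggagatacct
Foxq1: tgtaactttacagaggatcaaagccgttct
On mm9 the whole probes lie at chr8:123654402-123654461 (plus strand) for Foxl1, chr4:114578944-114579003 (minus strand) for Foxd2, chr8:123642693-123642752 (plus strand) for Foxc2, chr3:52150183-52150242 (plus strand) for Foxo1 and chr13:31652206-31652265 (plus strand) for Foxq1. Whether these stretches are coding or untranslated was not examined.

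Foxl1, a winged-helix factor known from mesenchyme that lies beneath epithelium, had the largest change of the family. Its processed signals, which are intensities after background subtraction and dye normalization, were 3000 in males and 1924 in females in cDKO RNA, against 674 and 686 in control RNA. Both cDKO signals were well above both control signals. Such a gap without overlap was found for 11 of the 28 members, of which 6 did not pass the test (Foxm1, Foxo6, Foxf1, Foxi1, Foxj2 and Foxo4), and for 11.8% of all tested genes. Foxo4 passed the filter only through the cDKO RNA, where it was higher, so its gap carries little weight. In 0 members, and in 7.54% of all tested genes, both cDKO signals were below both control signals. The log2 ratio of cDKO over control was 2.05 in males and 1.43 in females, with a mean of 1.74 ± 0.44 (SD, n = 2), which is 3.34-fold (limma, adjusted p = 1.77e-05). It was the 1 forkhead gene at least 2-fold higher on both arrays, and 0 were 2-fold lower, where 0.41% and 0.726% of all tested genes passed these rules. Its mean log2 ratio was 1.82 both with the processed signals and in the authors' deposited value table. The call was kept with the processed signals (limma, adjusted p = 0.0314) and lost in the value table (limma, adjusted p = 0.251). Calls of the 4 genes below were also lost in the value table (limma, adjusted p of 0.362 to 0.415), where 0 of all probes were called.

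Foxd2, a factor of embryonic mesenchyme whose loss in mice can leave small kidneys, came next. Signals were 2266 in males and 1469 in females in cDKO RNA, against 788 and 870 in control RNA. The lower of the cDKO signals was still above the higher control signal. The mean log2 ratio was 1.09 ± 0.51 (SD, n = 2), or 2.12-fold, with 1.44 in males and 0.73 in females (limma, adjusted p = 0.00234).

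Foxc2, which acts in embryonic mesoderm, lymphatic valves and the kidney, behaved alike in size. Its signals were 9321 in males and 5818 in females in cDKO RNA and 3604 and 3549 in control RNA, so that the genotypes did not overlap. The mean log2 ratio was 1.05 ± 0.50 (SD, n = 2), or 2.07-fold, with 1.40 in males and 0.70 in females (limma, adjusted p = 0.00293). For both Foxd2 and Foxc2 the ratio on the female array was below 2-fold, and with the processed signals neither gene passed (limma, adjusted p of 0.135 and 0.142).

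Foxo1 encodes an effector of insulin and growth factor signalling that AKT excludes from the nucleus. Its brightest probe had signals of 9072 in males and 6938 in females in cDKO RNA, against 4795 and 4432 in control RNA, again without overlap. The mean log2 ratio was 0.81 ± 0.24 (SD, n = 2), or 1.75-fold (limma, adjusted p = 0.0102). A second Foxo1 probe gave 0.55 ± 0.062 (SD, n = 2) and did not pass (limma, adjusted p = 0.0786). The call of the first probe was lost with the processed signals (adjusted p = 0.171) and under median centring (adjusted p = 0.170).

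Foxq1, a factor known in mice from hair shaft structure and mucin expression of the stomach, was read by the brightest probe, although brightness does not rank transcript levels between genes. Signals were 24899 in males and 19705 in females in cDKO RNA, against 15361 and 13793 in control RNA. The genotypes did not overlap. The mean log2 ratio of 0.60 ± 0.085 (SD, n = 2), or 1.52-fold, lay at the edge of the threshold (limma, adjusted p = 0.04996), and the call was lost with the processed signals, with a normexp offset of 0, under median centring and without a filter.

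**Figure D1:**
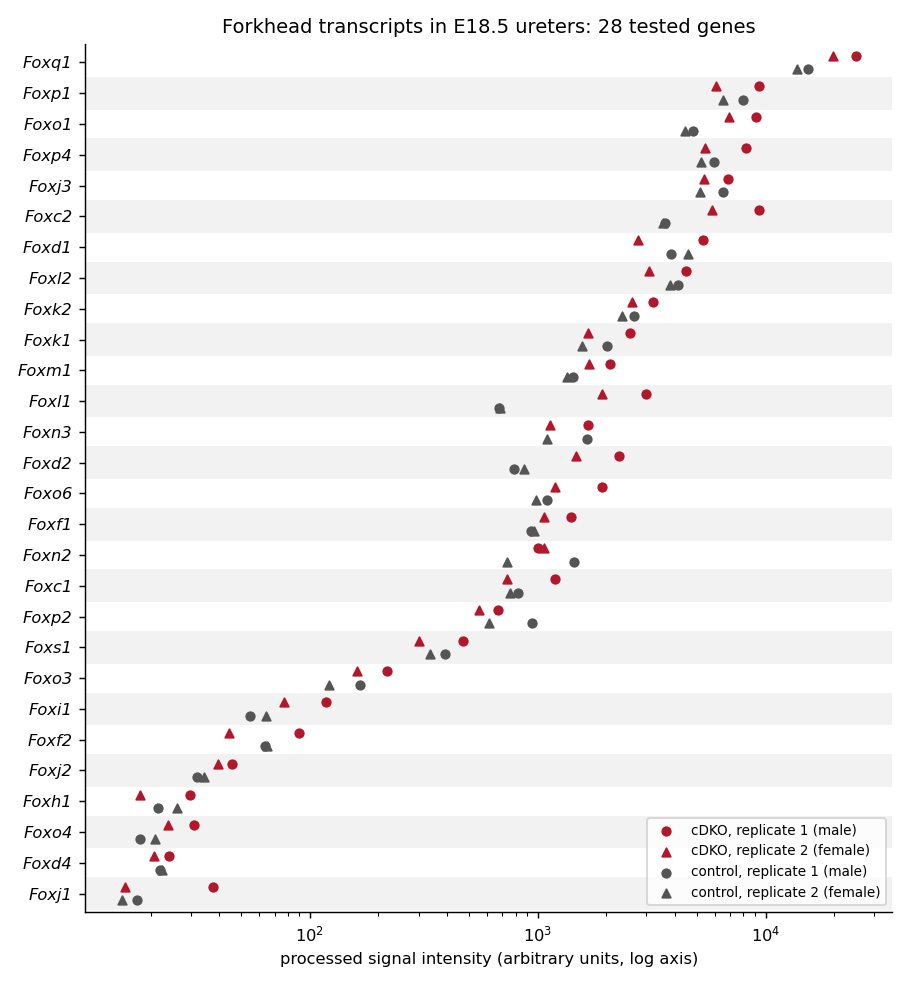
Processed signal intensity (log axis) of the 28 tested forkhead genes, brightest at the top, with cDKO RNA in red above control RNA in grey; circles are replicate 1 (male) and triangles replicate 2 (female). The red points of Foxl1, Foxd2, Foxc2, Foxo1 and Foxq1 lie to the right of both grey points, as do those of 6 members that did not pass, and Foxq1 at 13793 to 24899 has the brightest probe. Of these 6, Foxo4 passed the filter only through the cDKO RNA.

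All 5 genes had a larger ratio on the male array than on the female array. So did 24 of the 28 tested members, or 85.7%, where 53.9% of all tested genes did. The median log2 ratio of the 28 was 0.19, with 0.31 in males and 0.11 in females, against 0.0046 over all tested genes, with 0.0034 in males and 0.018 in females. The ratio was above 1 on both arrays for 19 of the 28 and below 1 on both for 1, Foxp2, where these shares were 31.7% and 28% of all tested genes. The other 8, or 28.6%, went opposite ways on the arrays, where 40.3% of all tested genes did. Under median centring 14 members were above 1 on both arrays and the median was 0.32, with 0.064 over all probes. Without a filter the median was 0.10 over all members but Foxa2, whose brightest probe had no ratio on the male array. Foxl1, Foxd2, Foxc2 and Foxo1 were at least 1.5-fold higher on both arrays, and 0 members were 1.5-fold lower, where 1.5% and 1.72% of all tested genes passed. Tested members are not all members: Foxj1, Foxo4 and Foxd4 passed the filter only through the cDKO RNA.

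**Figure D2:**
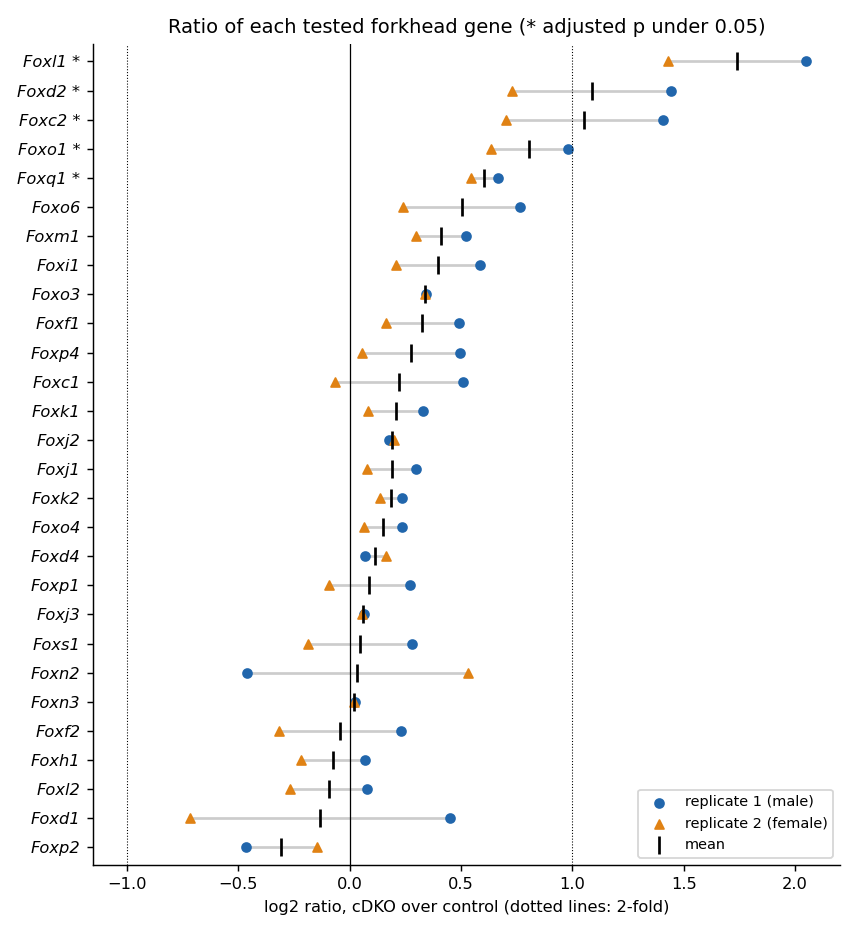
Log2 ratio of cDKO over control for each of the 28 tested forkhead genes, sorted by mean; blue circles are replicate 1 (male), orange triangles replicate 2 (female), black ticks the mean of both, and stars mark adjusted p under 0.05. Means run from -0.31 for Foxp2 to 1.74 for Foxl1, and Foxd1 and Foxn2 have the widest gaps between the arrays.

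**Figure D3:**
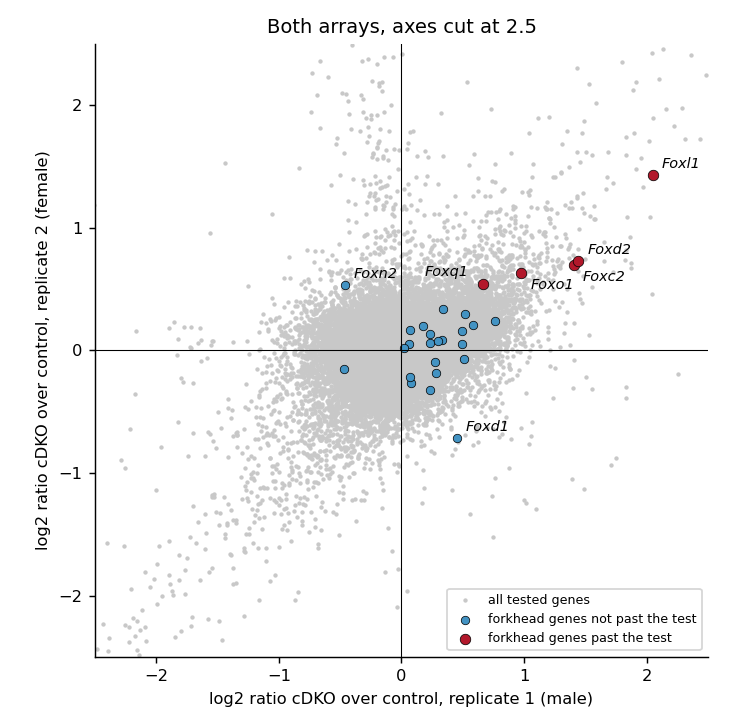
Log2 ratio of cDKO over control on replicate 1 (male, horizontal) against replicate 2 (female, vertical) for all 23419 tested genes in grey and the 28 forkhead genes in colour; 91 genes lie outside the axes, which end at 2.5. The 5 forkhead genes past the test lie in the upper right, nearer to the horizontal axis than to the vertical one, and Foxd1 and Foxn2 lie in opposite corners.

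The genes called include neighbours on a chromosome. Foxf1, Foxc2 and Foxl1 form a cluster on chromosome 8, where the probes of Foxf1 and Foxc2 are 32.0 kb apart and those of Foxc2 and Foxl1 11.7 kb apart (mm9). Foxf1, a hedgehog-responsive factor of visceral mesenchyme, had signals of 1406 and 1064 in cDKO RNA against 938 and 966 in control RNA. Its ratio of 0.33 ± 0.23 (SD, n = 2) did not pass (limma, adjusted p = 0.380). Of 18 tested genes within 500 kb on either side of the cluster, Foxc2 and Foxl1 passed, and 0 of the 15 genes other than forkhead members did, with mean log2 ratios of -0.39 to 0.58. Over all tested genes 2.19% were called higher and 2.26% lower, so 0 of 15 lies near these shares. The 0.58 belongs to a transcript with no symbol, whose probe lies 1.26 kb from that of Foxf1 on the same strand. Whether that transcript is part of Foxf1 was not examined. Mthfsd, an enzyme gene between the Foxf1 and Foxc2 probes, was at -0.01 ± 0.075 (SD, n = 2). This window was chosen after values were seen.

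The second cluster, on chromosome 13, holds Foxq1, Foxf2 and Foxc1, with 70.9 kb from the Foxq1 to the Foxf2 probe and 179.3 kb on to the Foxc1 probe. Foxc1, a close relative of Foxc2 with a known role in positioning the ureteric bud, had signals of 1194 and 735 in cDKO RNA against 823 and 760 in control RNA, which overlap. Its log2 ratio was 0.51 in males and -0.07 in females (limma, adjusted p = 0.643). Foxf2, a mesenchymal relative of Foxf1, was dim, with signals of 89.9 and 44.0 in cDKO RNA against 63.4 and 64.5 in control RNA. Its log2 ratio was 0.23 in males and -0.32 in females (limma, adjusted p = 0.955), and 0.50 and -0.55 with the processed signals. Of 6 genes tested in this window, Foxq1 passed, where 2.19% of all tested genes were called higher and 2.26% lower.

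**Figure D4:**
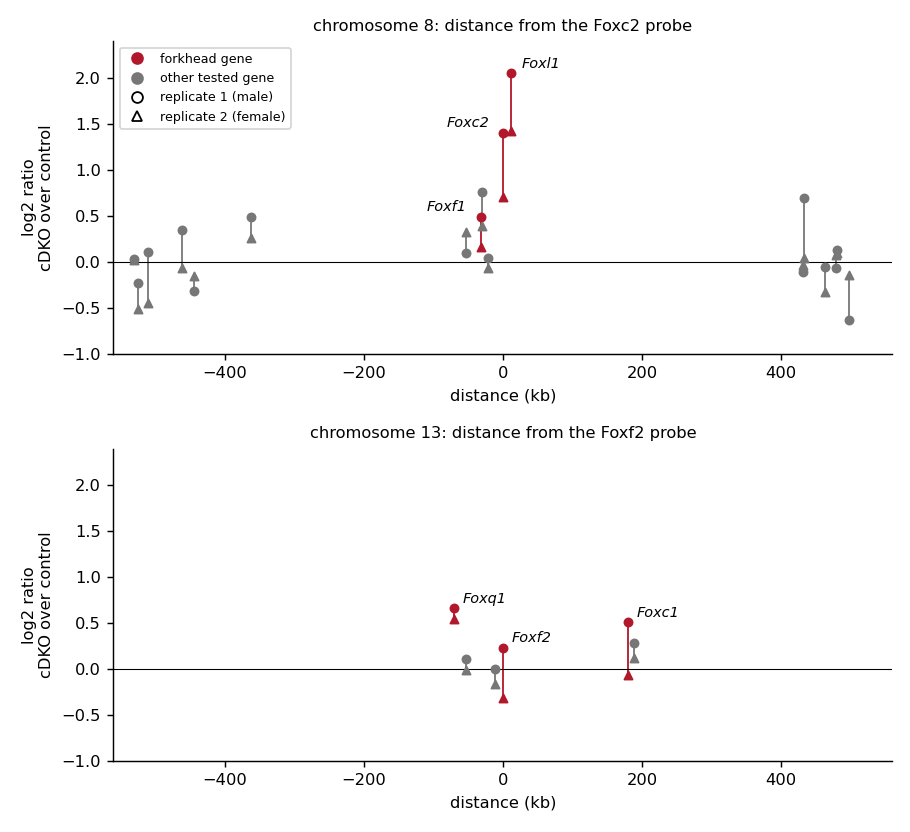
Log2 ratio of cDKO over control of every tested gene within 500 kb of the chromosome 8 cluster (top) and the chromosome 13 cluster (bottom), by distance in kb from the Foxc2 and the Foxf2 probe; red marks forkhead genes, grey other genes, circles replicate 1 (male) and triangles replicate 2 (female). Within each array, Foxl1 at 2.05 and 1.43 and Foxc2 at 1.40 and 0.70 stand above the other genes of the top panel, which include Foxf1.

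Among other stromal and mesenchymal members, Foxd1 marks progenitors of the kidney stroma. Its signals were 5314 in males and 2751 in females in cDKO RNA, against 3846 and 4578 in control RNA. The red channel was the brighter one on both arrays, and the log2 ratio was 0.45 in males and -0.72 in females, with a mean of -0.13 ± 0.82 (SD, n = 2) that did not pass (limma, adjusted p = 0.873). In a list of 13 other kidney stroma genes, 0 were higher and 2 lower, Akr1b7 at -1.21 and Ren1 at -0.996, both known from renin-producing cells, and the list's median was 0.37, but 0.088 in males and 0.20 in females taken alone. Foxs1, known from perivascular cells, had signals of 471 and 300.2 in cDKO RNA against 390.1 and 338 in control RNA, and a log2 ratio of 0.05 ± 0.33 (SD, n = 2). Of 8 pericyte markers, 0 were higher and 1, Higd1b, was lower at -0.84. Beside the stroma and pericyte counts, the shares over all tested genes were 2.19% called higher and 2.26% lower.

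The hedgehog pathway, which acts upstream of Foxf1 and Foxl1 in other visceral mesenchyme, was examined as a list of 13 genes. Bmp4, which encodes a BMP ligand and not a hedgehog ligand, rose by 0.68 ± 0.19 (SD, n = 2; limma, adjusted p = 0.0281). The other 12 did not pass, where 2.19% of all tested genes were called higher and 2.26% lower. The median of the list was 0.36, with 0.48 in males and 0.20 in females, against 0.0046 over all tested genes. Gli1, a direct target of the pathway, was at 0.48 ± 0.23 (SD, n = 2), and the hedgehog ligand gene Shh was at 0.03 ± 0.24.

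FOXO genes other than Foxo1 did not pass. Foxo6 had signals of 1910 and 1186 in cDKO RNA against 1103 and 986 in control RNA, and a log2 ratio of 0.76 in males and 0.24 in females (limma, unadjusted p = 0.0122, adjusted p = 0.151). A second Foxo6 probe was not well above background in any RNA, so the identity of the signal at the first is uncertain. Foxo3 was at 0.34 on both arrays (limma, adjusted p = 0.336), with signals of 218 and 161 in cDKO RNA against 166 and 122 in control RNA. Foxo4, a dim gene at 17.99 to 31.0 in all 4 RNAs, was at 0.15 ± 0.12 (SD, n = 2). With the processed signals it was at 0.79 in males and 0.19 in females. Of 18 known FOXO target genes, such as the cell cycle inhibitor Cdkn1b, 0 were called in either direction, with a median of -0.02. Over all tested genes 2.19% were called higher and 2.26% lower, so 0 of 18 lies near these shares.

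Foxm1, the activator of mitotic genes, had signals of 2069 and 1677 in cDKO RNA against 1433 and 1350 in control RNA. These do not overlap, and its log2 ratio of 0.41 ± 0.16 (SD, n = 2) had an unadjusted p of 0.0254 but did not pass (limma, adjusted p = 0.227). Its second probe gave 0.35 ± 0.28 (SD, n = 2). Of 14 tested FOXM1 target genes 0 were called in either direction, with a median of 0.20, but 0.046 in males and 0.23 in females taken alone. This count lies near the shares over all tested genes, 2.19% called higher and 2.26% lower.

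None of the tested FOXP, FOXK, FOXJ and FOXN members passed the test. Foxp1, a repressor active in many tissues, had signals of 9337 and 6055 in cDKO RNA against 7953 and 6483 in control RNA, and its 3 probes gave mean log2 ratios of 0.09, 0.11 and -0.14. Foxp4, its relative, had signals of 8235 and 5401 in cDKO RNA against 5966 and 5217 in control RNA, a ratio of 0.27 ± 0.31 (SD, n = 2). A second, overlapping Foxp4 probe gave 0.27 ± 0.32 (SD, n = 2), and a further one nearby, for another transcript, read only 44.1 to 69.2 over the 4 RNAs, with a ratio of 0.19. Foxp2 was at -0.31 ± 0.22 (SD, n = 2; limma, adjusted p = 0.418), and its second probe at -0.01.

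Foxj3 had signals of 6876 and 5388 in cDKO RNA against 6476 and 5171 in control RNA, a ratio of 0.06 ± 0.0049 (SD, n = 2). Foxk2 and Foxk1, which restrain autophagy genes, were at 0.18 ± 0.070 and 0.21 ± 0.17 (SD, n = 2 each), with signals of 2350 to 3219 and 1560 to 2547 over the 4 RNAs. Foxn3, known from cell cycle checkpoints, was at 0.02 on both arrays. Foxn2 went opposite ways, with signals of 1001 and 1071 in cDKO RNA against 1446 and 733 in control RNA, and here the green channel was the brighter one on both arrays. Foxj2 was dim, at 31.8 to 45.4 over the 4 RNAs, with a ratio of 0.19 ± 0.017 (SD, n = 2). Its processed signals gave log2 ratios further apart, 0.51 in males and 0.20 in females.

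Foxi1 is the master regulator of acid- and base-secreting intercalated cells of the collecting duct. It had signals of 118 and 77.2 in cDKO RNA against 54.6 and 64.3 in control RNA, without overlap, and its log2 ratio of 0.40 ± 0.27 (SD, n = 2) did not pass (limma, unadjusted p = 0.0333, adjusted p = 0.263). From the processed signals the log2 ratios were 1.11 in males and 0.26 in females. In a list of 12 intercalated cell genes 10 could be tested, of which 4 were higher, 0 lower and 6 did not pass. Over all tested genes 2.19% were called higher and 2.26% lower. The 4 were Rhcg, an ammonia transporter, at 1.12, Car2, a carbonic anhydrase, at 0.91, Tfcp2l1, a transcription factor, at 0.70 and Slc4a1, an anion exchanger also made by red blood cells, at 0.62. Those that did not pass include the exchanger gene Slc4a9, whose ratio was below 1 on both arrays, with a mean log2 ratio of -0.42 (limma, adjusted p = 0.201), and the proton pump subunits Atp6v0a4 at 0.64 (adjusted p = 0.0508), Atp6v1c2 at 0.10 and Atp6v0d2 at 0.08. Summed signals of the list were 6458 and 5697 in cDKO RNA against 3515 and 3758 in control RNA, of which Car2 alone gave 3687 and 3319 in cDKO RNA and 1705 and 1870 in control RNA. Of nephron and tubule markers 8 of 11 were higher, and their summed signals were 14414 and 8308 in cDKO RNA against 7205 and 6596 in control RNA. The pump subunits Atp6v1b1 and Atp6v1g3 were too dim to be tested.

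Foxj1, the master regulator of motile cilia, stood at 37.5 and 15.5 in cDKO RNA against 17.3 and 15.0 in control RNA, and was well above background in 3 of the 4 RNAs. Its log2 ratio was 0.19 ± 0.16 (SD, n = 2; limma, adjusted p = 0.679), while the processed signals gave 1.11 in males and 0.05 in females. Of 17 motile cilium genes 12 could be tested and 0 were called, near the all-gene shares of 2.19% higher and 2.26% lower. Foxl2, a factor of ovarian granulosa cells, was read at 4484 and 3085 in cDKO RNA against 4149 and 3795 in control RNA by its brightest probe, but an overlapping probe read at most 10.3, so its identity is uncertain. Foxh1, a partner of SMAD proteins in the early embryo, was at -0.08 and Foxd4 at 0.12, both with signals under 30 in every RNA. The processed signals gave 0.47 in males and -0.55 in females for Foxh1, and 0.14 and -0.12 for Foxd4.

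The other 15 members were not tested. Their signals were at most 24.5, leaving aside a spot of Foxa2 marked as an outlier. Of these, 11 were counted as well above background in 0 of the 4 RNAs, among them Foxb1, Foxb2, Foxe3, Foxi2, Foxl2os, Foxn1, Foxn4, Foxr1, Foxr2 and Foxa2. The Foxa2 outlier was its brighter probe on the male array, which was left out there. For Foxa2 the count therefore rests on the female RNAs alone. The 11 include genes known for other organs, such as Foxn1 of thymic epithelium and Foxe3 of the lens. Foxe1 of the thyroid and Foxp3 of regulatory T cells were well above background in 1 RNA each, and Foxa3 and Foxi3 in 2 RNAs each. Of 9 T cell markers 5 could be tested and 0 were called, near the all-gene shares of 2.19% higher and 2.26% lower.

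Promoter windows were examined because several members rose together. RefSeq windows of 300 bases (GRCm38.p6, mostly upstream of each start) were matched for 27 of the 43 members, with 32 windows. The T-box motif GGTGTGA, on either strand, was in 0 of the 32, where 3.98% of 32851 windows of all genes hold it. The forkhead motif TGTTTAC, on either strand, was in 0 of the 32 as well, where 3.65% of all windows hold it. Shares this low leave few matches to be found in 32 windows, and the members' windows were richer in G and C, with a median of 62.8% against 52.7% for all windows. Of the 5 called genes, Foxo1 and Foxd2 had a window.

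**Figure D5:**
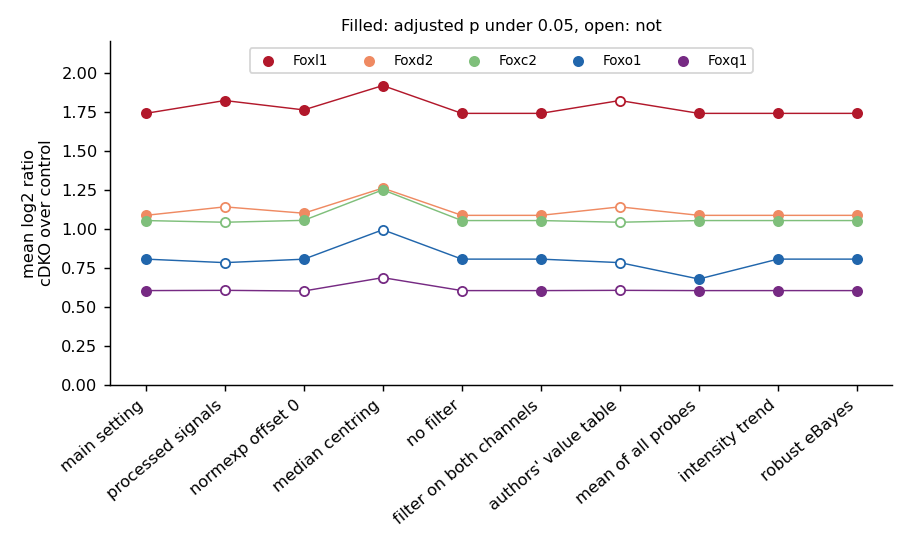
Mean log2 ratio of cDKO over control of the 5 called forkhead genes under the main setting and 9 alternatives; filled points have an adjusted p under 0.05 and open points do not. Foxl1 stays between 1.74 and 1.92 and is open in 1 alternative, the authors' deposited value table, while Foxq1 stays between 0.60 and 0.69 and is open in 5 alternatives. Alternatives that change only the filter or the test keep the ratios of the main setting by design, and the value table repeats those of the processed signals.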

How the data were processed

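Agilent Feature Extraction 10.7.3.1 read the scans, per the file headers, with an array design placed on mm9. It wrote, per the file headers, mean spot and median local background intensity per channel, processed signal intensity after background subtraction and dye normalization, a deposited log10 ratio of red over green, and deposited flags of 0 or 1. A further table deposited by the authors holds a score whose scale is not stated. Comparison with the processed signals showed it to be a signed fold change, cDKO over control, to within 0.01 log2 for 100% of 25106 and 24222 spots over a signal of 100 in both channels. Its median was 1 on both arrays, and 11933 and 11692 of its values were exactly 1 on replicates 1 and 2.

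Background was removed from mean intensities by normexp with offset 50, and each array was then loess-normalized in limma 3.58.1 under R 4.3.3; control and outlier spots had weight 0. The offset pulls the log2 ratios of dim probes, and their spread between the arrays, toward 0. Spots of a probe were averaged. Of 39429 probes, 29274 passed the filter. Log2 ratios were turned to cDKO over control, and their mean was tested against 0 (lmFit, eBayes, two-sided, 1 residual and 13.9 prior degrees of freedom, Benjamini-Hochberg over probes), so the pooled variance of all probes dominates each p-value, and p-values measure only the spread between these samples. Symbols came from RefSeq accessions for 26412 probes. All genes are counted by their brightest kept probe. Both arrays lay on 1 slide with 1 scan.

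The members, lists and tests were chosen with earlier results of these data known. Members are named with values if called, at least 1.5-fold on both arrays, among the 10 brightest or in the chromosome 8 or 13 cluster, and other members were described after their values were seen. Of each list up to 4 called members are named; Gli1, Shh, Mthfsd, Slc4a9 and the proton pump subunits were chosen after their values were seen. The fit was tested on simulated data. Noise was drawn from the fitted variances, independently for each array and without a difference of sex or dye. In each of 3 sets (29274 probes each), 99 to 100 of 100 changes of 2-fold and 100 of 100 changes of 4-fold were recovered, and 10.3% to 13.5% of the calls were false, above the nominal 5%. The real arrays differ in sex and dye, so this recovery does not give the power reached on them.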

Additional observations from a re-analysis of the deposited data

Results flagged for a closer look

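Of the 28 tested forkhead genes 8 went opposite ways on the male and the female array, which differ in sex and in dye orientation alike. This is 28.6% of them, where 40.3% of all tested genes went opposite ways. With 1 array of each sex the difference was not tested. The log2 ratios of cDKO over control were 0.45 in males and -0.72 in females for Foxd1, and -0.46 and 0.53 for Foxn2. They were 0.51 and -0.068 for Foxc1, 0.27 and -0.093 for Foxp1, and 0.078 and -0.27 for Foxl2. Those of Foxs1 were 0.28 and -0.19, those of Foxf2 0.23 and -0.32, and those of Foxh1 0.067 and -0.22. For Foxn2 the male array had the lower ratio, and for the other 7 the female array did.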

How the results depend on the processing

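The count of forkhead genes called higher was 5 in the main setting, 1 with the processed signals, 3 under median centring and 0 in the authors' value table (limma, with 6 members at an unadjusted p under 0.05), and 4 or 5 in the other 6 alternatives. The cause of the lower counts was not tested. Forkhead genes called lower, or at least 2-fold lower on both arrays, were 0 under every alternative run. The count at least 2-fold higher was 1 in each setting with both arrays. It was 1 without replicate 1 and 3 without replicate 2, with Foxl1, Foxd2 and Foxc2, and single arrays allow no test. Under median centring Foxd1 turned to 0.064 and Foxl2 to 0.10, while the median of all probes was 0.21 on the male array. Of 9 alternatives with a test, Foxl1 kept its call in 8, Foxd2 and Foxc2 in 7, Foxo1 in 6 and Foxq1 in 4, with adjusted p of 4.67e-09 to 0.251 for Foxl1. These alternatives are not independent. Those that change the filter, the intensity trend or the robust step reuse the ratios of the main setting. So does the mean of all probes for genes with a single probe. The value table repeats the ratios of the processed signals. Over all probes 594 were called higher and 666 lower (47.1% higher), against 150 and 258 with the processed signals (36.8% higher), 176 and 186 under median centring, 1057 and 827 with an intensity trend, and 0 and 0 in the value table (2972 at an unadjusted p under 0.05). No paired analysis was possible because the reported fit is already paired, with 1 ratio of both genotypes per array, and a further block cannot be fitted to 1 ratio per replicate.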

Other observations

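A transcript with no symbol in the files has its probe 1.26 kb from that of Foxf1 on chromosome 8 (mm9, chr8:123611944-123612003, plus strand). Its signals were 15382 in males and 11084 in females in cDKO RNA, against 9050 and 8338 in control RNA, without overlap. Its log2 ratio of 0.58 ± 0.26 (SD, n = 2) did not pass (limma, adjusted p = 0.0768). The Foxf1 probe lies on the same strand, and whether both probes read 1 transcript was not examined.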
